A study of Mus musculus with 10 samples.

Results

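Transcripts of 10 genes that write, maintain, remove or read out DNA methylation and Polycomb marks were followed across 10 libraries of mouse hematopoietic stem cells (HSCs), the bone marrow cells from which all blood lineages arise. The genes were taken by name: the DNA methyltransferases Dnmt1, Dnmt3a and Dnmt3b, the maintenance cofactor Uhrf1, the 5-methylcytosine oxidases Tet1, Tet2 and Tet3, the histone methyltransferases Ezh1 and Ezh2, and the chromatin regulator Asxl1. They are 10 of the 20270 genes in the deposited table, and all 10 are among the 15143 genes that were tested.

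DNA methyltransferases place a methyl group on cytosine in CG dinucleotides. Dnmt3a and Dnmt3b set new patterns, and Dnmt1, recruited by Uhrf1 to the hemimethylated sites left by replication, copies existing ones. Tet enzymes oxidize the methyl group and so start its removal. Ezh1 and Ezh2 are the alternative catalytic subunits of Polycomb repressive complex 2 (PRC2), which methylates lysine 27 of histone H3, a mark of silent genes, and Asxl1 is a partner of the deubiquitinase Bap1, which removes the ubiquitin mark that Polycomb repressive complex 1 (PRC1) places on histone H2A. In blood, mutations of DNMT3A, TET2 and ASXL1 are the most common lesions of clonal hematopoiesis in people, and loss of Dnmt3a or Tet2 in mice expands the HSC compartment.

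The cells came from C57BL/6 mice that had received lineage-negative (Lin-) marrow cells of Id1-/- (KO) or Id1+/+ (WT) donors, and HSCs were sorted by flow cytometry from the marrow of these primary recipients. The groups were KO stressed (2 libraries, A and B), WT stressed (2 libraries, A and B), KO normal (3 libraries, A to C) and WT normal (3 libraries, A to C). All cells of all groups had therefore been through a transplantation, and HSCs of mice that were not transplanted are not part of the comparison. The labels leave normal and stressed undefined and place the sort 4 weeks after transplantation, whereas the text on the series' design has 6 weeks. They do not state whether replicates came from separate animals or from pools. The p-values below therefore measure only the spread between these libraries, which may be technical.

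Values were deposited as log2 CPM, a read count expressed relative to the reads of its library, after quantile normalization, and the estimated depth was 25700000 to 33000000 reads per library. Id1, the targeted gene, went against the labels: it had 9.06 and 8.44 CPM in the KO-labelled stressed libraries and 1.28 and 4.39 CPM in the WT-labelled stressed ones, and 9.62 to 13.2 CPM in the KO-labelled normal libraries and 1.35 to 3.17 CPM in the WT-labelled normal ones. The labels do not say which part of Id1 the KO allele lacks. Its averaged log2 difference was 2.19 (SE 0.36, limma adjusted p = 0.013), and this call was lost without KO-labelled stressed A (adjusted p = 0.075) or B (adjusted p = 0.072) and without the variance trend (adjusted p = 0.11), while Id1 was higher in each KO-labelled library than in any WT-labelled one. Every genotype difference below is one between libraries as labelled. The principal component with 19.0% of the variance separated the conditions, and on the one with 12.5% the KO-labelled normal library A stood at -100 while the other 9 libraries lay between -12.9 and 31.3. Other libraries stood apart as well. WT-labelled stressed B stood at -94 on the component with 11.8%, where the other 9 lay between -4.29 and 48.7. WT-labelled stressed A stood at -83 on the one with 13.1%, where the other 9 lay between -20.3 and 60.8. All 15 HSC markers were tested and none had 0 reads in any library. Of 8 T and NK cell markers 3 were in the table: Il7r had 0 reads in 8 libraries, Cd4 had 0 reads in 3, and Nkg7 had 52.2 to 118 CPM in all 10.

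All 10 regulators were well above the detection limit. The lowest single value was 45.7 CPM, for Tet2, and the highest was 607 CPM, for Dnmt1. At the lowest estimated depth of any library, 45.7 CPM corresponds to about 1175 reads. Between the lowest and the highest library, the levels of a gene differed by 1.32-fold for Dnmt3b up to 1.96-fold for Tet2. No regulator thus varied by as much as 2-fold over the 10 libraries.

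**Figure D1:**
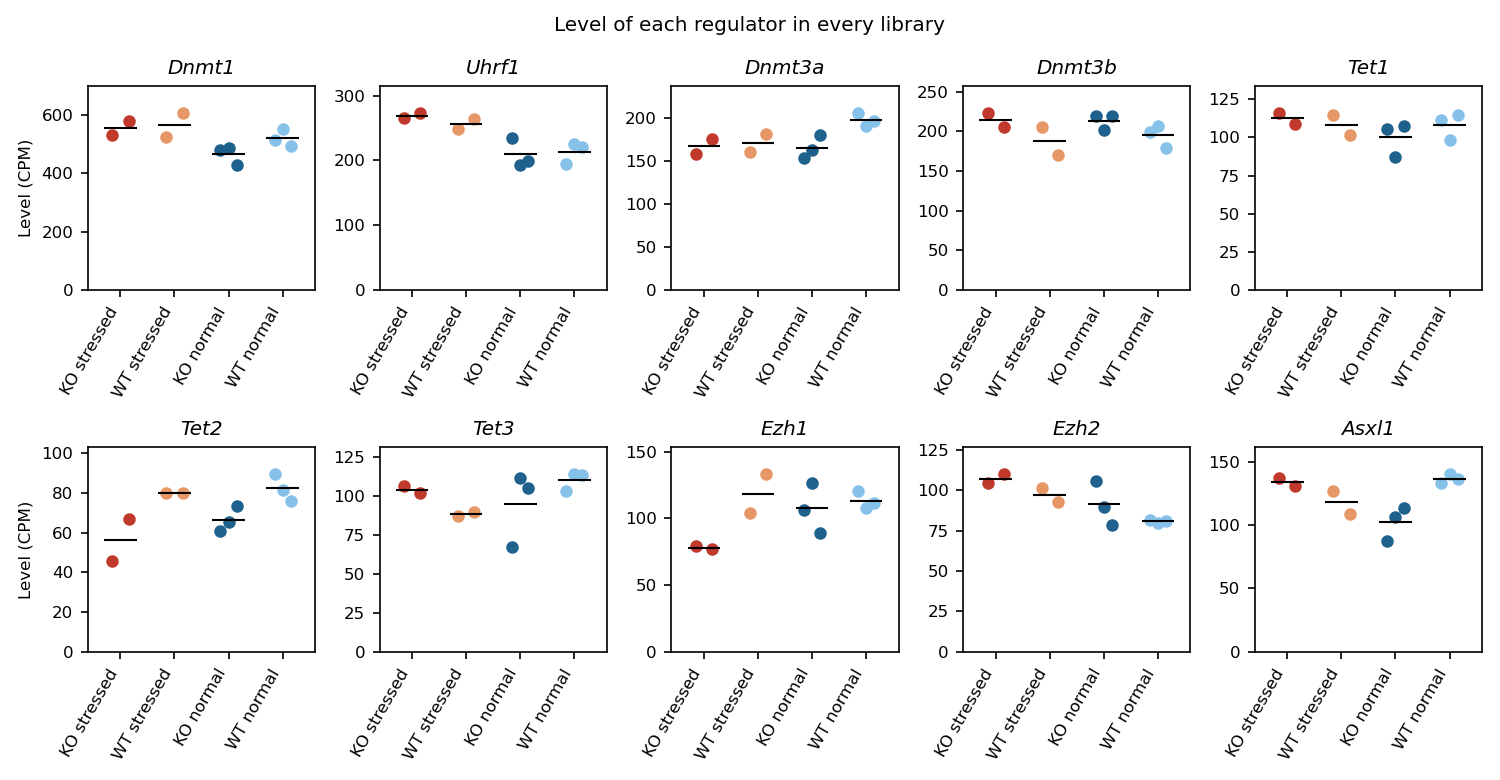
Levels of the 10 regulators in CPM, 1 panel per gene; each point is 1 library, grouped as KO stressed, WT stressed, KO normal and WT normal, and each line is the group mean. Uhrf1 stands higher in the 4 stressed libraries (248 to 274 CPM) than in the 6 normal ones (193 to 235 CPM), and Tet2 lower in the 5 KO-labelled libraries (45.7 to 73.5 CPM) than in the 5 WT-labelled ones (76.0 to 89.5 CPM).

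Divided by the length of the merged exons, the maintenance pair led the order of levels. Dnmt1 had a median of 70.2 CPM per kb over the 10 libraries and Uhrf1 54.0 CPM per kb, and their ranges overlapped. Dnmt3b followed at 40.2 CPM per kb and overlapped neither neighbour. Asxl1 (17.3 CPM per kb), Ezh1 (14.4 CPM per kb), Ezh2 (13.7 CPM per kb) and Dnmt3a (10.7 CPM per kb) formed a middle group in which each overlapped the next. Tet1 (5.63 to 7.52 CPM per kb), Tet3 (4.03 to 6.83 CPM per kb) and Tet2 (2.71 to 5.30 CPM per kb) came last, below the whole range of Dnmt3a, and again overlapped in sequence. The merged exons of Tet2, Tet3 and Dnmt3a are 16870, 16695 and 16642 bases long, and a gene whose annotated exons are partly unused in these cells is placed too low on this scale.

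**Figure D2:**
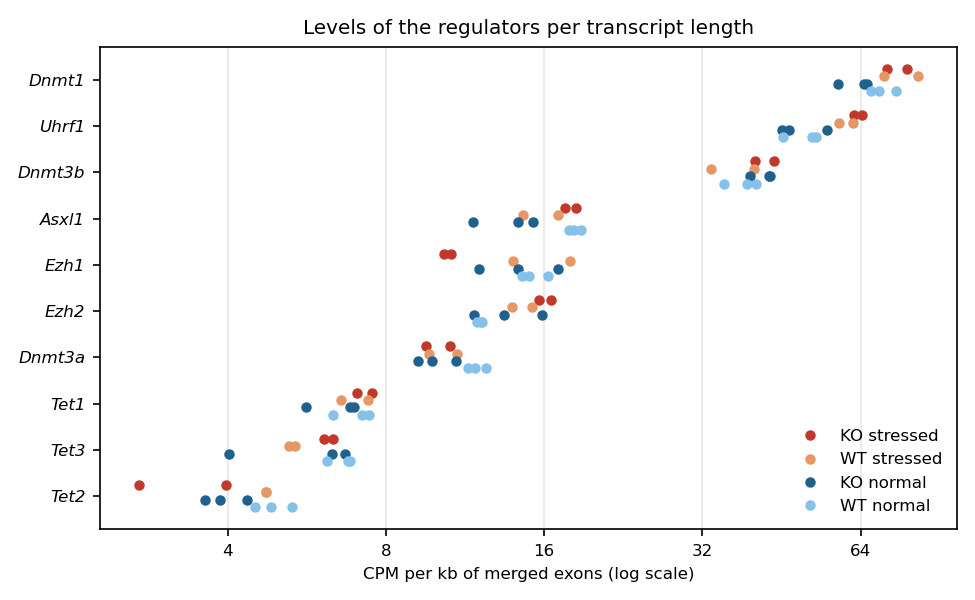
Level of each regulator in CPM per kb of merged exons on a logarithmic axis, with 1 point per library coloured by group. Dnmt1 and Uhrf1 are highest (medians of 70.2 and 54.0 CPM per kb) and the 3 Tet genes lowest (2.71 to 7.52 CPM per kb).

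Stressed against normal HSCs, with the genotypes averaged, gave the only call among the regulators. Uhrf1 rose by a log2 difference of 0.32, or 1.25-fold, and was the 1 of 10 regulators past the threshold of an adjusted p under 0.05, a threshold that 8.29% of all tested genes passed in this comparison, 3.94% as higher and 4.36% as lower in stressed cells. In the next places by p-value stood Dnmt1 and Ezh2, which lay higher on average in stressed cells without passing. The median log2 difference over all genes tested was 0.00.

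Uhrf1 reads hemimethylated CG sites and brings Dnmt1 to them behind the replication fork. Its gene (ENSMUSG00000001228.14) lies on mm10 chr17:56303321-56323486, plus strand, and its level was 265 and 274 CPM in the KO-labelled stressed libraries and 248 and 264 CPM in the WT-labelled stressed ones, against 235, 193 and 199 CPM in the KO-labelled normal libraries and 194, 225 and 220 CPM in the WT-labelled normal ones. All 4 stressed libraries stood above all 6 normal ones, a separation that 8.28% of tested genes showed in either direction. The averaged log2 difference had an SE of 0.066 and a 95% interval of 0.17 to 0.46 (limma adjusted p = 0.013). The call ended without KO-labelled stressed library B (adjusted p = 0.060) or WT-labelled stressed library B (adjusted p = 0.051) and in 2 other settings of limma, while the log2 difference stayed between 0.28 and 0.36 in all 16 alternatives. The processed pseudogene Gm5648, which matches Uhrf1 over 1590 bases at 98.3% identity, was listed at 0.252 to 1.10 CPM, at most 0.419% of the Uhrf1 level.

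Within the genotypes, the Uhrf1 log2 difference between stressed and normal was 0.37 (SE 0.094, limma adjusted p = 0.0501) in KO-labelled cells and 0.27 (SE 0.094, limma adjusted p = 0.17) in WT-labelled cells. Neither passed, stressed and normal libraries did not overlap in either genotype, and the difference between the 2 values was 0.10 (SE 0.13, 95% interval -0.19 to 0.39). Without KO-labelled normal library A, the KO value was 0.46 (limma adjusted p = 0.012).

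The genes whose levels across the 10 libraries were most like those of Uhrf1, by Pearson's r among 10197 genes with a mean log2 level above 3, were Lig1 (r = 0.973), which seals Okazaki fragments during DNA replication, Noa1 (r = 0.962), a mitochondrial GTPase, and Dusp3 (r = 0.951), a dual-specificity phosphatase. Lig1 had 214 to 224 CPM in KO-labelled stressed libraries and 204 to 206 CPM in WT-labelled stressed ones, against 141 to 172 CPM in KO-labelled normal libraries and 148 to 169 CPM in WT-labelled normal ones. Among the regulators, Ezh2 (r = 0.755) and Dnmt1 (r = 0.704) came closest, at ranks 426 and 616. These coefficients describe libraries that share the contrast between conditions and carry no test.

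Dnmt1 copies methylation onto the daughter strand (ENSMUSG00000004099.16, mm10 chr9:20907209-20959888, minus strand). It had 531 and 579 CPM in KO-labelled stressed libraries and 523 and 607 CPM in WT-labelled stressed ones, against 479, 486 and 428 CPM in KO-labelled normal libraries and 512, 552 and 494 CPM in WT-labelled normal ones. Stressed values were higher on average, but the WT-labelled normal libraries overlapped them. The averaged log2 difference was 0.19 (SE 0.056, 95% interval 0.065 to 0.31, limma adjusted p = 0.065), which missed the threshold, with a range of 0.034 to 0.23 for the adjusted p over the alternatives.

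Ezh2 is the PRC2 subunit of dividing cells (ENSMUSG00000029687.16, mm10 chr6:47530139-47595341, minus strand). It had 104 and 110 CPM in KO-labelled stressed libraries and 101 and 93.0 CPM in WT-labelled stressed ones, against 106, 89.7 and 78.5 CPM in KO-labelled normal libraries and 81.4, 79.8 and 81.1 CPM in WT-labelled normal ones. The only normal library within the stressed range was KO-labelled library A. The averaged log2 difference was 0.25 (SE 0.084, 95% interval 0.069 to 0.44, limma adjusted p = 0.094). Over the 16 alternatives the difference lay between 0.20 and 0.31. Only without KO-labelled normal library A did it pass (0.31, limma adjusted p = 0.021).

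Ezh1, the PRC2 subunit that prevails in resting cells (ENSMUSG00000006920.14), lies on mm10 chr11:101191115-101226463, minus strand. It had 79.2 and 76.8 CPM in KO-labelled stressed libraries and 104 and 133 CPM in WT-labelled stressed ones, against 106, 127 and 89.4 CPM in KO-labelled normal libraries and 121, 108 and 111 CPM in WT-labelled normal ones. The KO-labelled stressed libraries stood below the other 8. Stressed minus normal was -0.45 in KO-labelled cells (SE 0.15, limma adjusted p = 0.12) and 0.05 in WT-labelled cells (SE 0.15, limma adjusted p = 0.90), neither of which passed. The difference between these changes was -0.50 (SE 0.21, limma adjusted p = 0.50).

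Set against each other per kb, the PRC2 catalytic subunits gave an Ezh2 to Ezh1 ratio of 1.47 and 1.60 in KO-labelled stressed libraries and 1.08 and 0.778 in WT-labelled stressed ones, against 1.11, 0.788 and 0.979 in KO-labelled normal libraries and 0.750, 0.823 and 0.812 in WT-labelled normal ones. Both KO-labelled stressed libraries had the highest ratios, and the 3 other groups overlapped. The ratio of Uhrf1 to Dnmt1 was 0.864 and 0.820 in KO-labelled stressed libraries and 0.821 and 0.751 in WT-labelled stressed ones, against 0.849, 0.689 and 0.807 in KO-labelled normal libraries and 0.655, 0.705 and 0.772 in WT-labelled normal ones. The KO-labelled stressed libraries stood above the WT-labelled normal ones in this ratio, and all other pairs of groups overlapped. These pairs were chosen after the values were seen and are given as a description.

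**Figure D3:**
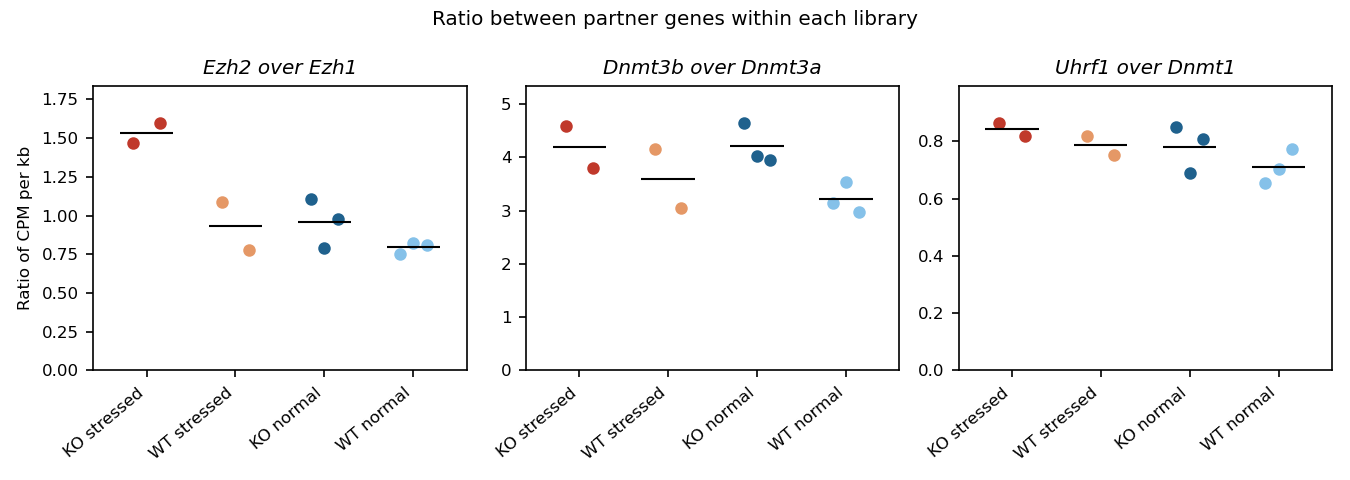
Ratio of levels per kb between partner genes in each library, by group: Ezh2 over Ezh1, Dnmt3b over Dnmt3a, and Uhrf1 over Dnmt1. The Ezh2 to Ezh1 ratio is 1.47 and 1.60 in the KO-labelled stressed libraries and 0.750 to 1.11 in the other 8.

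The promoters were examined because Uhrf1, Dnmt1 and Ezh2, the 3 regulators with the smallest p in the averaged stress comparison, are known targets of E2F factors, which drive genes of the G1 to S transition. RefSeq start sites (GRCm38.p6) matched all 10 regulators and gave 15 windows of 300 bases, 250 before and 50 after the start. TTTCCCGC, TTTCGCGC, TTTGCCGC and TTTGGCGC, the E2F-type motifs, were searched on both strands, and at least 1 of them occurred in 744 of 32851 mouse windows (2.26%), or in 704 of 27025 genes (2.6%). Among the 10 regulators 3 held a match, namely Uhrf1, Ezh2 and Dnmt1. The motifs were chosen with these 3 genes already in view, so the count is a description beside the share and not a test. All 4 motifs contain CG, and the matching windows held 31 to 33 CG, against a median of 7 over all mouse windows. The regulators' windows without a match held from 2 (Dnmt1) to 57 (Tet2). A match is a description of letters and not evidence of binding, and a part of E2F factors in these differences was not tested. The Uhrf1 match lay 185 bases before the second of its RefSeq starts (chr17:56304063-56304312, plus strand), which is inside the gene's span, and the window of its first start held none. The Ezh2 match lay 3 bases after its RefSeq start, which is also inside the gene's span. The printed Ezh2 stretch (chr6:47595020-47595183, minus strand) runs from the end of an exon of a longer transcript to the last base of the match. Both stretches are printed 5′ to 3′ with the matching letters in capitals.
Uhrf1: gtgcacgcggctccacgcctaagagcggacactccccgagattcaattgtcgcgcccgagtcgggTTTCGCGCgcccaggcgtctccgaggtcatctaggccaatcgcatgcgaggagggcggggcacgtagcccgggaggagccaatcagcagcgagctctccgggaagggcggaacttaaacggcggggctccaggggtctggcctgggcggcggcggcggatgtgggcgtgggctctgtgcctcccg
Ezh2: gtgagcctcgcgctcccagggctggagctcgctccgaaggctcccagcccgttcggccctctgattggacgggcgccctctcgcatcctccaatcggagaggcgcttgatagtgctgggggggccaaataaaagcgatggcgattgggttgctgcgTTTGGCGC
In Dnmt1, 1 of its windows held TTTCGCGC on the opposite strand 219 bases before the start and TTTGGCGC 33 bases after it. The windows of Dnmt3a, Dnmt3b, Tet1, Tet2, Tet3, Ezh1 and Asxl1 held no match to these 4 motifs.

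The other 7 regulators did not pass in the averaged stress comparison, with log2 differences between -0.20 for Ezh1 and 0.09 for Tet1 and Asxl1. Among the de novo methyltransferases, Dnmt3a gave -0.10 (SE 0.065, limma adjusted p = 0.42) and Dnmt3b -0.02 (SE 0.067, 95% interval -0.17 to 0.12, limma adjusted p = 0.88). Tet1 gave 0.09, Tet2 -0.15 and Tet3 -0.07, with limma adjusted p-values of 0.59, 0.46 and 0.79. No regulator passed within KO-labelled cells (0 of 10 by limma, 4 at an unadjusted p under 0.05) while 4.5% of tested genes did, and none within WT-labelled cells (0 of 10 by limma, 3 at an unadjusted p under 0.05) while 3.3% of tested genes did. At an unadjusted p under 0.05 the background was 17.9% of tested genes in KO-labelled and 16.8% in WT-labelled cells. Stressed and normal libraries did not overlap for 5 regulators in each genotype, against 33.1% of tested genes in KO-labelled cells and 36.4% in WT-labelled cells. Apart from Uhrf1, the smallest adjusted p-values by limma were those of Asxl1 (0.084) and Dnmt1 (0.10, log2 difference 0.26) in KO-labelled cells and of Dnmt3a (0.28, log2 difference -0.21) in WT-labelled cells. Within a genotype and between genotypes the contrasts share libraries, so their values are not independent of each other.

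**Figure D4:**
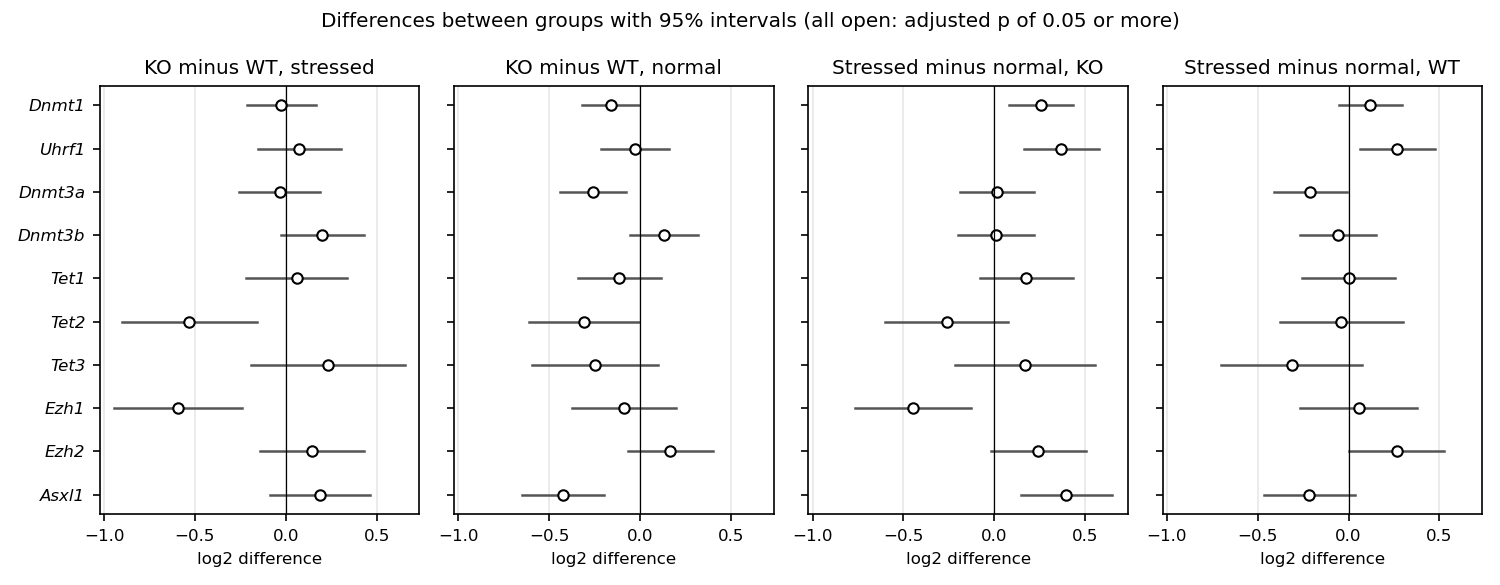
Log2 differences of the 10 regulators with 95% intervals from limma in 4 comparisons: KO against WT within each condition, and stressed against normal within each labelled genotype. All symbols are open, since none has an adjusted p under 0.05; the Uhrf1 difference between stressed and normal is 0.37 in KO-labelled and 0.27 in WT-labelled cells.

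Between genotypes no regulator passed in any comparison. With the conditions averaged the count was 0 of 10 by limma with 4 at an unadjusted p under 0.05, against 1.07% of tested genes called and 13.1% at the unadjusted level. In stressed HSCs it was 0 of 10 with 2 at the unadjusted level, against 0.145% and 8.88% of tested genes. In normal HSCs it was 0 of 10 with 4 at the unadjusted level, against 1.56% and 13.9% of tested genes. The median log2 difference of the 10 regulators in normal HSCs was -0.14, beside -0.01 over all genes tested.

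Tet2, which oxidizes methylcytosine and restrains HSC self-renewal (ENSMUSG00000040943.12), lies on mm10 chr3:133463679-133545139, minus strand. It had 45.7 and 66.9 CPM in KO-labelled stressed libraries and 79.9 and 80.0 CPM in WT-labelled stressed ones, and 61.0, 65.1 and 73.5 CPM in KO-labelled normal libraries and 89.5, 81.5 and 76.0 CPM in WT-labelled normal ones. All 5 KO-labelled libraries stood below all 5 WT-labelled ones, a separation that 2.63% of tested genes showed and that no other regulator did. The averaged log2 difference was -0.42 (SE 0.11, 95% interval -0.66 to -0.18), and it missed the threshold (limma adjusted p = 0.12) in each of the alternatives, where the adjusted p ran between 0.054 and 0.28. The difference was -0.53 (SE 0.17, limma adjusted p = 0.39) in stressed and -0.31 (SE 0.14, limma adjusted p = 0.36) in normal cells. KO-labelled stressed library A was the lowest of all.

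The other Tet genes did not share that separation. Tet3 (ENSMUSG00000034832.15, mm10 chr6:83362373-83459084, minus strand) had 106 and 102 CPM in KO-labelled stressed libraries and 87.4 and 89.7 CPM in WT-labelled stressed ones, and 67.3, 112 and 105 CPM in KO-labelled normal libraries and 103, 114 and 113 CPM in WT-labelled normal ones. Its lowest value was in KO-labelled normal library A, and its averaged difference between genotypes was -0.01 (SE 0.12, 95% interval -0.28 to 0.26, limma adjusted p = 0.99). Tet1 (ENSMUSG00000047146.15, mm10 chr10:62804570-62908996, minus strand) lay between 86.993 and 116 CPM in all 10 libraries, with an averaged difference of -0.03 (SE 0.082, 95% interval -0.21 to 0.15, limma adjusted p = 0.92).

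Asxl1 had its clearest genotype difference in normal HSCs. It had 137 and 130 CPM in KO-labelled stressed libraries and 127 and 109 CPM in WT-labelled stressed ones, and 87.1, 106 and 113 CPM in KO-labelled normal libraries and 133, 140 and 136 CPM in WT-labelled normal ones. The KO-labelled normal libraries were all below the WT-labelled normal ones, while in stressed cells the KO-labelled libraries were the higher ones. KO minus WT was -0.42 in normal cells (SE 0.10, 95% interval -0.65 to -0.20, limma adjusted p = 0.075) and 0.19 in stressed cells (SE 0.13, 95% interval -0.09 to 0.46, limma adjusted p = 0.73). The difference between these, the interaction, was 0.61 (SE 0.16, 95% interval 0.25 to 0.97), with an unadjusted p of 0.0030 and a limma adjusted p of 0.27. Stressed minus normal was 0.40 in KO-labelled cells (SE 0.11, limma adjusted p = 0.084) and -0.22 in WT-labelled cells (SE 0.11, limma adjusted p = 0.38). No regulator passed the interaction test (0 of 10 by limma, 2 at an unadjusted p under 0.05, Asxl1 and Ezh1), beside 0.0198% of tested genes called and 9.15% at the unadjusted level.

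Asxl1 (ENSMUSG00000042548.13, mm10 chr2:153345829-153404007, plus strand) and Dnmt3b (ENSMUSG00000027478.15, chr2:153649450-153687730, plus strand) lie on the chromosome of the targeted gene, 608418 and 912039 bases from Id1 (ENSMUSG00000042745.9, chr2:152736251-152737410, plus strand). Of the 12 tested genes between Id1 and Asxl1, and the 17 between Id1 and Dnmt3b, 0 were called between KO and WT in stressed, normal or averaged cells. Over all tested genes the called shares were 0.145%, 1.56% and 1.07%, so a count of 0 among so few genes says little. An effect of sequence near the targeted gene was not tested. An antisense transcript, 2500004C02Rik, shares 197 exonic bases with Asxl1 and was listed at 6.09 to 12.3 CPM. Opposite-strand transcripts also share exonic bases with Ezh2 (174 bases, Gm26625), Dnmt3a (133 bases, Dnmt3aos) and Tet2 (43 bases, Gm42567). No source used here gives the strand setting of featureCounts, so it is not known whether reads in these stretches were assigned to the right gene.

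The de novo methyltransferases leaned in opposite directions between genotypes. Dnmt3a (ENSMUSG00000020661.15, mm10 chr12:3806007-3914443, plus strand) had 158 and 176 CPM in KO-labelled stressed libraries and 161 and 182 CPM in WT-labelled stressed ones, and 154, 163 and 181 CPM in KO-labelled normal libraries and 206, 191 and 197 CPM in WT-labelled normal ones. The 3 WT-labelled normal libraries were the highest of the 10. KO minus WT was -0.26 in normal cells (SE 0.082, 95% interval -0.44 to -0.079, limma adjusted p = 0.18) and -0.03 in stressed cells (SE 0.10, limma adjusted p = 0.96), neither past the threshold.

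Dnmt3b had 223 and 206 CPM in KO-labelled stressed libraries and 205 and 170 CPM in WT-labelled stressed ones, and 219, 201 and 219 CPM in KO-labelled normal libraries and 199, 207 and 180 CPM in WT-labelled normal ones. KO-labelled values were higher on average with overlap in normal cells, and the averaged difference was 0.16 (SE 0.067, 95% interval 0.017 to 0.31, limma adjusted p = 0.33). The ratio of Dnmt3b to Dnmt3a per kb was 4.60 and 3.81 in KO-labelled stressed libraries and 4.16 and 3.04 in WT-labelled stressed ones, and 4.65, 4.03 and 3.95 in KO-labelled normal libraries and 3.14, 3.53 and 2.97 in WT-labelled normal ones. In normal cells the genotypes did not overlap in this ratio, and in stressed cells they did. This ratio, too, was chosen after the values were seen. For Dnmt3b alone, KO minus WT was 0.20 in stressed cells, where the genotypes did not overlap, and 0.13 in normal cells, where they did (limma adjusted p = 0.62 and 0.55).

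Ezh1 gave the largest single log2 difference between genotypes among the regulators, -0.59 in stressed HSCs (SE 0.16, 95% interval -0.94 to -0.24, limma adjusted p = 0.30), and -0.09 in normal HSCs (SE 0.13, limma adjusted p = 0.82). Uhrf1 and Dnmt1, in contrast, gave averaged differences of 0.02 (SE 0.066, 95% interval -0.12 to 0.17, limma adjusted p = 0.92) and -0.09 (SE 0.056, 95% interval -0.22 to 0.03, limma adjusted p = 0.51). Ezh2 gave 0.16 (SE 0.084, 95% interval -0.03 to 0.34, limma adjusted p = 0.47). In stressed HSCs 7 of 10 regulators did not overlap between the 2 libraries of each genotype, against 39.1% of tested genes, and in normal HSCs 4 of 10 did not, namely Asxl1, Dnmt3a, Dnmt1 and Tet2, each with its lower values in the KO-labelled libraries, against 19.5% of tested genes.

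The partners of these regulators were examined in the averaged stress comparison as lists of genes that exclude the 10. Over all tested genes 3.94% were called higher and 4.36% lower in this comparison. Of 9 tested core and accessory subunits of PRC2, 1 was called higher and 1 lower. Phf1, which helps PRC2 bind chromatin, fell by 0.72 on the log2 scale (SE 0.11, limma adjusted p = 0.0016). It had 25.8 to 26.6 CPM in KO-labelled stressed libraries and 25.7 to 26.7 CPM in WT-labelled stressed ones, against 34.6 to 46.6 CPM in KO-labelled normal libraries and 42.4 to 45.6 CPM in WT-labelled normal ones. All 4 stressed libraries stood below all 6 normal ones, and Phf1 passed in each genotype alone, at -0.68 in KO-labelled cells (limma adjusted p = 0.028) and -0.77 in WT-labelled cells (limma adjusted p = 0.019). These calls were kept in 10 of 17 alternatives in KO-labelled and 11 of 17 in WT-labelled cells, and were lost without KO-labelled stressed A or B or normal B or C in the first case and without any 1 WT-labelled library in the second. Its paralog Mtf2 rose by 0.27 (SE 0.074, limma adjusted p = 0.044), a call kept in 5 of 16 alternatives and lost without any 1 library other than KO-labelled normal A and WT-labelled normal B (adjusted p up to 0.17). The median of the 9 was 0.04.

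Of 22 tested PRC1 genes, 0 were called higher and 2 lower, with a median of -0.05, a share close to the 8.29% of all tested genes. Cbx6, one of the chromodomain subunits that read methylated lysine 27, fell by 0.63 (SE 0.069, limma adjusted p = 0.00020). It had 106 to 112 CPM in KO-labelled stressed libraries and 113 to 115 CPM in WT-labelled stressed ones, against 145 to 183 CPM in KO-labelled normal libraries and 174 to 183 CPM in WT-labelled normal ones, again without overlap. Cbx7, the chromodomain subunit known to support HSC self-renewal, fell by 0.41 (SE 0.11, limma adjusted p = 0.037), a call kept in 6 of 16 alternatives and lost without any 1 library other than WT-labelled stressed B, KO-labelled normal A and WT-labelled normal C (adjusted p up to 0.13). In the list of 8 Asxl and Bap1 partners, 1 was called lower and 0 higher, with a median of -0.03, beside 4.36% of all tested genes called lower. Ogt, the O-GlcNAc transferase, was the gene called and fell by 0.29 (SE 0.042, limma adjusted p = 0.0016). The H3K27 demethylases Kdm6a and Kdm6b gave log2 differences of 0.09 and -0.07 and did not pass.

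**Figure D5:**
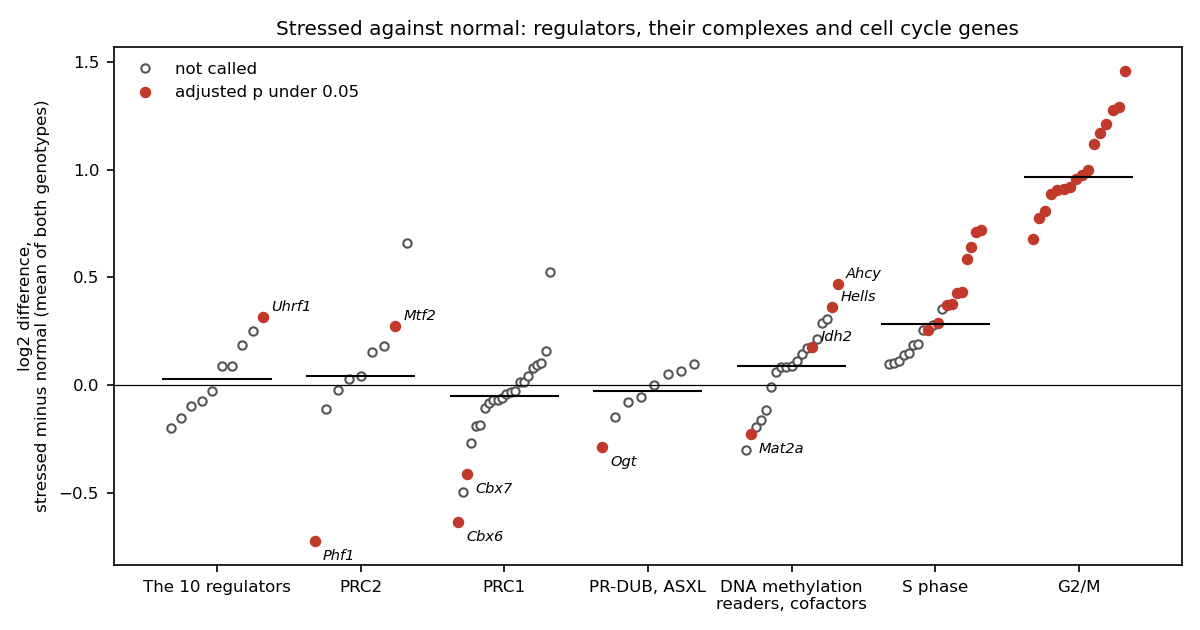
Log2 difference between stressed and normal HSCs, averaged over genotypes, for each gene of the partner lists and the cell cycle lists; filled symbols have a limma adjusted p under 0.05. Phf1 (-0.72) and Cbx6 (-0.63) stand lowest among the Polycomb genes, and all 16 G2/M genes are called higher.

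Of 19 tested readers and cofactors of DNA methylation, 3 were called higher and 1 lower, beside 3.94% and 4.36% of all tested genes. Their median was 0.09. Hells, a chromatin remodeler needed for DNA methylation at repeats, rose by 0.36 (SE 0.078, limma adjusted p = 0.015). It had 102 to 103 CPM in KO-labelled stressed libraries and 84.8 to 99.7 CPM in WT-labelled stressed ones, against 70.9 to 83.7 CPM in KO-labelled normal libraries and 71.8 to 80.0 CPM in WT-labelled normal ones. All 4 stressed libraries stood above all 6 normal ones, and the call was lost without KO-labelled stressed A or B or WT-labelled stressed A (adjusted p up to 0.066). Idh2, a mitochondrial source of the 2-oxoglutarate that Tet enzymes use, rose by 0.18 (SE 0.048, limma adjusted p = 0.044), a call kept in 5 of 16 alternatives and lost without any 1 library other than WT-labelled stressed B and KO-labelled normal A (adjusted p up to 0.17). Mat2a, which makes the methyl donor S-adenosylmethionine, fell by 0.23 (SE 0.046, limma adjusted p = 0.011), a call lost without KO-labelled stressed B and without the variance trend.

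Ahcy, which hydrolyses the by-product of methyl transfer, rose by 0.47 (SE 0.088, limma adjusted p = 0.0068). Ahcy was also the only gene of these lists called between genotypes, with KO minus WT at -0.96 in stressed (limma adjusted p = 0.025, kept in 8 of 17 alternatives) and -1.11 in normal cells (limma adjusted p = 0.00074, kept in all 17). Reads of Ahcy and its near-identical copy Gm4737 may be split by the counting, so the Ahcy value alone is uncertain. Summed over both genes the level was 64.7 to 65.1 CPM in KO-labelled stressed libraries and 65.4 to 69.3 CPM in WT-labelled stressed ones, and 41.1 to 49.8 CPM in KO-labelled normal libraries and 48.3 to 54.7 CPM in WT-labelled normal ones. The genotypes overlapped in the sum in normal cells. In stressed cells the KO-labelled sums lay below the WT-labelled ones without overlap, as 39.1% of tested genes did in either direction. All stressed libraries stood above all normal ones.

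Between genotypes, 0 of 9 PRC2, 0 of 22 PRC1 and 0 of 8 Asxl and Bap1 genes were called by limma in stressed, normal or averaged cells. The called shares of all tested genes were 0.145%, 1.56% and 1.07%, in that order. At an unadjusted p under 0.05 none of these 3 lists had more than 2 genes in any of these comparisons, where the share of all tested genes was 8.88% in stressed, 13.9% in normal and 13.1% in averaged cells. Of 6 genes known as PRC2 targets in blood cells, 2 were tested, and Lin28b, a fetal RNA-binding protein gene, was called lower in stressed cells (limma adjusted p = 0.0048). It had 0 reads in 1 library and 0.132 CPM in the other KO-labelled stressed library, and 0 reads in 1 library and 0.466 CPM in the other WT-labelled stressed one, against 2.08 to 4.33 CPM in KO-labelled normal libraries and 1.48 to 3.25 CPM in WT-labelled normal ones. Hmga2 did not pass (-0.23, limma adjusted p = 0.22).

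Cell cycle genes moved with Uhrf1 in the averaged stress comparison, in which 3.94% of all tested genes were called higher and 4.36% lower. Of 20 S phase genes 10 were called higher and 0 lower, with a median of 0.28, among them Rrm2 (0.71, SE 0.078) and Rrm1 (0.43, SE 0.037), the subunits of ribonucleotide reductase. Of 16 G2/M genes all 16 were called higher, with a median of 0.97. Their summed level was 2013 to 2072 CPM in KO-labelled stressed libraries and 1839 to 1841 CPM in WT-labelled stressed ones, against 975 to 1095 CPM in KO-labelled normal libraries and 958 to 997 CPM in WT-labelled normal ones. Of 12 quiescence genes 4 were called lower and 0 higher, including the cell cycle inhibitor Cdkn1c (-0.96, SE 0.12). The S phase count was 10 without KO-labelled normal A, 5 without KO-labelled stressed B, and 6 without each of KO-labelled stressed A, WT-labelled stressed A, KO-labelled normal B and WT-labelled normal A, and the G2/M count was 16 in every alternative. The part of these genes in the Uhrf1 difference was not tested.

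Markers of cell identity also differed between conditions, beside 3.94% of all tested genes called higher and 4.36% called lower in stressed cells. Of 15 HSC markers 8 were called lower and 0 higher in stressed cells, and their summed level was 4346 to 4464 CPM in KO-labelled stressed libraries and 4704 to 4874 CPM in WT-labelled stressed ones, against 4956 to 5355 CPM in KO-labelled normal libraries and 5808 to 6117 CPM in WT-labelled normal ones. Of 7 megakaryocyte markers 5 were called higher, with a summed level of 1414 to 1422 CPM in KO-labelled stressed libraries and 1334 to 1346 CPM in WT-labelled stressed ones, against 802 to 846 CPM in KO-labelled normal libraries and 910 to 936 CPM in WT-labelled normal ones. Of 2 tested T and NK cell markers, Nkg7 was called higher (0.84, SE 0.070, limma adjusted p = 3.3e-05). The other, Cd4, lay lower in stressed cells without passing (-3.96, SE 1.39, limma adjusted p = 0.11) and had 0 reads in 3 libraries. Of 9 erythroid markers 4 were called lower, and of 12 granulocyte and monocyte markers 1 was called higher and 2 lower. The summed level of the 9 measured B and plasma cell markers, of which 8 were tested, was 315 to 332 CPM in KO-labelled stressed libraries. It was 41.9 to 56.1 CPM in the 8 libraries of the other groups. The HSC count was 5 without KO-labelled stressed A, the erythroid count reached 2 and the granulocyte and monocyte count 1 with 1 library left out, and the megakaryocyte count was 5 throughout. Between genotypes, averaged over conditions, 1.07% of all tested genes were called in either direction. In this comparison 1 of 15 HSC markers was called lower. Among 12 granulocyte and monocyte markers 1 was called higher, Mpo (2.43, SE 0.30, limma adjusted p = 0.0033). For 9 erythroid and 8 B and plasma cell markers, 1 and 2 were called higher. In normal cells, where the KO-labelled levels of Asxl1, Dnmt3a, Dnmt1 and Tet2 were the lower ones, 11 of 12 granulocyte and monocyte markers had a higher mean in KO-labelled libraries (median log2 difference 1.14, 7 at an unadjusted p under 0.05, 1 called). Over all tested genes 13.9% had such a p and 1.56% were called. Some markers were near the detection limit, such as Ctsg, with means of 0.47 CPM in KO-labelled and 0.24 CPM in WT-labelled normal libraries. The abundant Lyz2 had means of 315 and 263 CPM. Summed over the 12 granulocyte and monocyte markers, the level was 578 to 661 CPM in KO-labelled normal libraries and 454 to 539 CPM in WT-labelled normal ones. Of 15 HSC markers in normal cells, 2 were called lower and 0 higher in KO-labelled libraries, and 6 had an unadjusted p under 0.05. Their median log2 difference was -0.13, and 6 of the 15 had a higher mean in KO-labelled libraries. In bulk RNA, fewer cells of a type and less RNA per cell cannot be told apart, and the part of these markers in any difference of the regulators was not tested.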

How the data were processed

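The submitters' processing notes name Bowtie2, featureCounts and the mouse build mm10, without versions. What the authors deposited is a table of log2 CPM, 1 column per library. Only the name of the deposited table names limma voom, and the near-identical distributions of the 10 libraries show that the values had been quantile normalized, which can make the spread of abundant genes look smaller. Depth was estimated from the steps between low values (10 to 100 reads), and 1 CPM corresponds to 25.7 to 33 reads. The strand setting of the counting is not given in the sources used here.

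A gene was tested when 2 or more libraries had a log2 value above 0, which 15143 genes met. In limma 3.58.1 (R 4.3.3), means of the 4 groups were fitted to the 10 libraries together, with variances that follow the mean (6 residual degrees of freedom), and p-values were adjusted over all these genes (Benjamini-Hochberg) in each of 7 contrasts: KO against WT in stressed cells, in normal cells and averaged, stressed against normal in WT, in KO and averaged, and the interaction. All 10 regulators, Id1, the called genes of each list with up to 4 of its smallest p-values, and the 3 genes most like a called regulator could be named. The members and lists were chosen with earlier results of these data known. Fits were tested on simulated data.

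Positions come from GENCODE vM21 (20199 of 20270 identifiers matched), promoters from RefSeq (GRCm38.p6), and gene copies from blastn 2.17.0 (at least 95% identity over 100 bases). Plots were drawn with matplotlib 3.10.9 in Python 3.11.15. Alternatives covered a replicate block, the variance trend, the minimum level of a tested gene, adding 1 CPM before the logarithm, scaling by a trimmed mean (30% cut at each end), fits with only the libraries compared, and each library left out.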

Additional observations from a re-analysis of the deposited data

How the results depend on the processing

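The Uhrf1 rise in stressed cells kept its side of the threshold in 12 of 16 alternatives. It was lost with the replicate block (adjusted p = 0.059), without the variance trend (0.075) and without either stressed library B. The replicate letters did not pair the libraries (correlations of -0.024 to 0.038 between same-letter deviations), and the labels do not say that a letter marks a shared animal or day.

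The count of regulators called in the averaged stress comparison was 0 with the replicate block, 0 without the variance trend, 2 with a filter at a log2 value of 2 (Dnmt1 joined, adjusted p = 0.046), and 0 to 2 with 1 library left out. In KO-labelled cells it was 1 with that filter, 1 with the pseudocount, 1 with trimmed scaling, and 0 to 1 with 1 library left out, the gene being Uhrf1. In all other comparisons it was 0 under every alternative run.

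Over all genes, calls for KO against WT in stressed cells (22) were 11 with the replicate block, 0 with only the libraries compared and 12 to 51 with 1 library left out. In normal cells (236) they were 45 without the trend, 133 with only the libraries compared and 129 to 238 with 1 left out. Averaged (162), they were 105 with the replicate block, 22 without the trend and 43 to 169. Stressed against normal in WT (500) gave 289 with the replicate block, 256 without the trend, 330 with only the libraries compared and 251 to 612. In KO (682) it gave 447 with the replicate block, 346 without the trend, 249 with only the libraries compared and 278 to 681 with 1 left out. Averaged (1256), it gave 773 with the replicate block and 776 to 1306 with 1 left out. The interaction (3) gave 8 without the trend, 12 without a filter, 7 with the stricter filter, 15 with the pseudocount and 1 to 26 with 1 left out. The causes were not tested.

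Some differences that missed the threshold changed sign, and of these Tet2 (-0.26) and Tet3 (0.17) in KO, stressed against normal, and the Tet2 interaction (-0.22) were not near 0. With the replicate block Ezh1 gave -0.015 (WT, stressed against normal) and Dnmt3b -0.0081 (KO), and with trimmed scaling Tet1 gave -0.0040 (WT). With 1 library left out, some ranges crossed 0. For KO against WT in stressed cells they were -0.13 to 0.082 for Dnmt1, -0.12 to 0.055 for Dnmt3a and -0.025 to 0.14 for Tet1. In normal cells they were -0.11 to 0.026 for Uhrf1 and -0.22 to 0.036 for Ezh1, and averaged -0.078 to 0.105 for Tet3, -0.070 to 0.021 for Tet1 and -0.020 to 0.051 for Uhrf1. For stressed against normal in WT they were -0.085 to 0.085 for Tet1, -0.20 to 0.076 for Dnmt3b, -0.12 to 0.23 for Ezh1 and -0.096 to 0.022 for Tet2. In KO they were -0.050 to 0.070 for Dnmt3b, -0.54 to 0.011 for Tet2, -0.061 to 0.091 for Dnmt3a and -0.062 to 0.30 for Tet3, and averaged -0.093 to 0.043 for Dnmt3b. For the interaction they were -0.50 to 0.051 for Tet2, -0.12 to 0.089 for Ezh2 and -0.066 to 0.21 for Dnmt3b.

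Phf1, Cbx6, Ogt and Ahcy kept their averaged stress calls in all 16 alternatives, while the S phase count fell to 5 of 20 with the replicate block. Groups of 2 and 3 libraries leave wide intervals, so differences that missed the threshold are not shown to be absent.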
